A study of Mus musculus with 2 samples.

Results

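Serpins are a family of protease inhibitors, and 60 members with symbols of clades A to I are covered here, of 31053 genes counted in these mouse mammary libraries. Members were taken by symbol alone. Of the 60, 22 had no unique molecular identifier (UMI, 1 counted mRNA molecule) in either library, 13 had between 1 and 19, and the 25 with at least 20 are described here. The same 25 reached 20 UMIs within the cells that passed filtering.

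Single mammary cells of C57BL/6 mice were profiled as 1 library per group with a 3′ tag method. The cKO library came from K8-CreERT2;miR-200c/141-flox/flox mice, in which the promoter of keratin 8, a luminal keratin, drives a tamoxifen-inducible Cre, so that recombination is directed to keratin 8-expressing cells. The Ctrl library came from miR-200c/141-flox/flox mice without Cre. Mice of both groups carried the floxed alleles and received tamoxifen at 8 to 10 weeks of age, and glands were taken 4 weeks later; the labels also list an age of 8 weeks, and the number of mice behind a library is not given in the sources used here. FACS was used to enrich the mammary cells, with the gate not given in the sources used here. The study asks how loss of these microRNAs changes gene expression in mammary cells. Neither microRNA has a row among the counted genes, so the deletion was not checked here.

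Most serpins inhibit proteases by a suicide mechanism: the protease cuts an exposed reactive-centre loop, the serpin folds the loop into its own sheet, and the protease stays trapped as a covalent complex. Clade B members lack a classical secretion signal and act mainly inside cells, whereas clades A, C, E, F, G and I are mostly secreted. Several members inhibit nothing: Serpinh1 is the collagen chaperone of the endoplasmic reticulum, Serpinf1 is the secreted factor known as PEDF, Serpina7 carries thyroid hormone, and Serpinb5, called maspin, was first described in normal mammary epithelium.

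The 60 genes sit largely in 3 genomic blocks of GRCm38, the mouse build also called mm10, with positions from GENCODE M21. The clade B block at chr1:106861173-107610484 holds 11 members, of which Serpinb5, Serpinb12, Serpinb11, Serpinb2 and Serpinb8 are described. The clade B block at chr13:32842092-34002794 holds 15, with Serpinb1a, Serpinb1b, Serpinb1c, Serpinb6a, Serpinb6b and Serpinb9 described. The clade A block at chr12:103614786-104414329 holds 23, with Serpina10, Serpina1b, Serpina1d, Serpina1e, Serpina3f, Serpina3g and Serpina3n described. Serpine2 (chr1:79794197-79861180), Serpinc1 (chr1:160978585-161005863), Serping1 (chr2:84765387-84775444) and Serpinh1 (chr7:99345376-99353239) stand apart from these blocks, as do Serpinf1, Serpini1 and Serpina7.

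Some of these genes are close copies, which matters for a count based on the 3′ end. Among 90-base windows of the last 500 transcript bases, 2.27% of those of Serpina1b were shared exactly with Serpina1d, 7.54% of those of Serpina1d with Serpina1b or Serpina1c, and 3.99% of those of Serpina3g with Serpina3f or Serpina3i. The annotated span of Serpina1b also contains that of Serpina1d. Counts of Serpina1b, Serpina1d and Serpina3g are therefore uncertain where a read could belong to a copy. The other 22 described members shared no such window with another serpin.

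The floxed locus encodes 2 microRNAs, and their mature sequences are shown with the seed (bases 2 to 8) in capitals, because the seed decides which messages can pair with them. Both come from RefSeq (GRCm38.p6), minus strand, at chr6:124718324-124718346 and chr6:124717917-124717938, and their seeds are not the same.
mmu-miR-200c-3p: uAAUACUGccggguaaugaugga
mmu-miR-141-3p: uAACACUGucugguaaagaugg

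Of the 25 described serpins, 0 held the miR-200c-3p match CAGTATT in the longest annotated 3′ untranslated region, against 13.9% of 21101 genes with such a region. The miR-141-3p match CAGTGTT lay in 4 of the 25, against 18.0% of those genes. The 4 matches are printed in capitals within 20 bases of the message strand; they start at base 261 of 657 in Serpinb2, base 2450 of 3159 in Serpinb8, base 1461 of 2744 in Serpini1 and base 284 of 744 in Serpinh1. A match is a run of letters in the sequence and not evidence of pairing in these cells.
Serpinb2: ctttagtttttaCAGTGTTa
Serpinb8: tctctgtctcagCAGTGTTa
Serpini1: ctggtgttaattCAGTGTTc
Serpinh1: tcaacagtcaatCAGTGTTc

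Before the serpins are described, the libraries need a word, since they stand apart. The files held 6257 barcodes with 103668011 UMIs for cKO and 4237 barcodes with 95520633 UMIs for Ctrl, and 5493 cKO and 3416 Ctrl cells passed filtering, with medians of 14002 and 19846 UMIs. Between the libraries, 6 barcodes occurred in both. Unsupervised clusters separated the libraries within a lineage: 1 hormone-sensing-like cluster held 1013 cKO and 2 Ctrl cells and another held 0 and 509, while 1 basal-like cluster held 908 and 121 and another 85 and 964. For that reason cells were assigned to classes individually, from the mean level of fixed marker lists, and not by cluster. With 1 library per group there is no replicate, no test between groups was possible, and every interval covers counting error only. A difference between cKO and Ctrl cannot be told apart from a difference between mice, dissociations or sorts.

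Levels are counts per 1000000 UMIs of the same class and library (CPM), with exact Poisson intervals; ratios are cKO over Ctrl with exact conditional binomial intervals, all at 95%. Hormone-sensing-like luminal cells (Prlr, Esr1, Pgr, Cited1) numbered 1110 in cKO and 464 in Ctrl, luminal-progenitor-like cells (Aldh1a3, Csn3, Kit, Elf5) 999 and 631, and luminal barcodes with both marker sets 1216 and 800. The barcodes with both sets had median depths of 28922.5 and 48965.5 UMIs, above the 12422 and 20674 of hormone-sensing-like cells, and pairs of cells among them were not tested for. Basal-like cells (Krt5, Krt14, Acta2) numbered 971 and 1078, HEV-like cells 319 and 48, and blood-endothelial-like cells 126 and 56. HEV stands for high endothelial venule, the lymph-node vessel through which lymphocytes leave the blood; its marker Glycam1 reached 150280 CPM in the cKO cells so named and 195526 in the Ctrl cells. The leukocyte marker Ptprc was at most 1.71 CPM in these 6 classes in cKO and at most 1.22 in Ctrl. In HEV-like cells all 5 B-cell markers had UMIs in cKO and 4 in Ctrl, with sums of 42.9 and 25.02 CPM, and all 6 T and NK markers in cKO and 4 in Ctrl, with sums of 19.8 and 13.4 CPM. Of 8 myeloid markers, 4 and 2 had UMIs there, with sums of 49.2 and 9.15 CPM, of which Fcer1g gave 47.0 and 5.49 CPM and Lyz2 none; the part of leukocytes in the serpin levels of that class was not tested. Lymphatic-endothelial-like cells (89 and 8) and fibroblast-like cells (21 and 5) were too few in Ctrl to compare and are only described.

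Serpin mRNA was densest in vessel and stromal cells. Summed over the 60 genes, serpins took 6021 CPM in cKO and 6231 CPM in Ctrl HEV-like cells, and 1824 and 1781 CPM in blood-endothelial-like cells. Basal-like cells followed with 1126 and 1177 CPM, then luminal-progenitor-like cells with 690.2 and 677 CPM and hormone-sensing-like cells with 301 and 251 CPM. The few fibroblast-like cells reached 5005 and 6662 CPM. The family sum thus differed more between cell classes than between the libraries of any of the 6 compared classes, where its ratio ran between 0.956 in basal-like cells and 1.20 in hormone-sensing-like cells. These sums are of 3′ tags, so transcript length does not enter them.

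**Figure D1:**
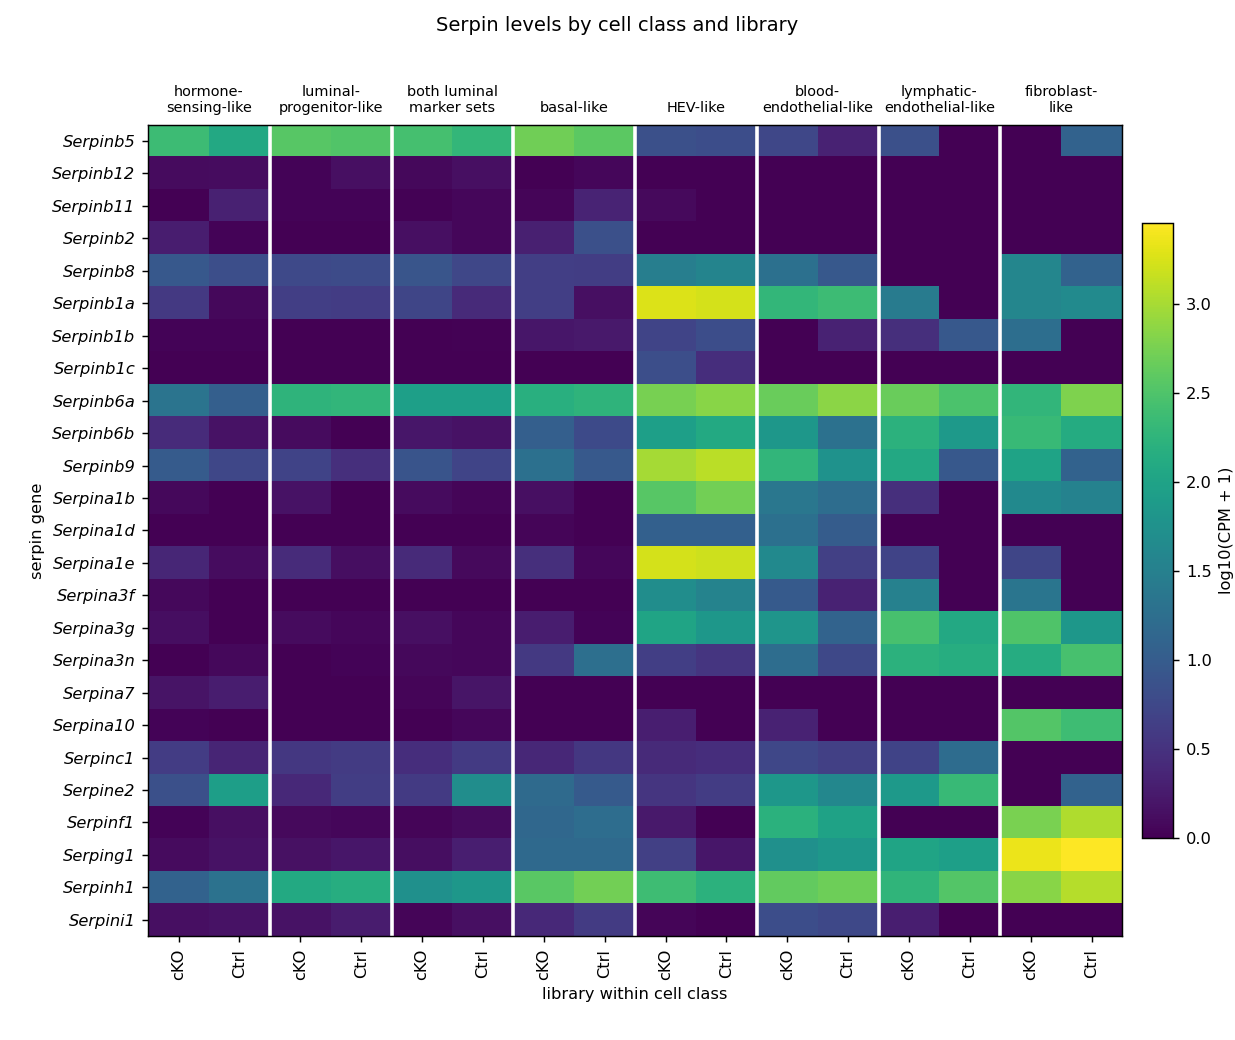
Level of the 25 serpins (rows, grouped by genomic block and clade) in 8 cell classes, with the cKO library left of the Ctrl library in each class; colour gives log10 of CPM plus 1. Serpinb1a, Serpinb9, Serpina1b and Serpina1e are brightest in HEV-like cells of both libraries, Serpinb5 in the epithelial classes, and Serping1 in the fibroblast-like cells, of which Ctrl has 5.

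Of the 25 members, 17 had their highest level in the same one of the 6 compared classes in both libraries, a share near the 63.6% of all 15685 genes with at least 20 UMIs. HEV-like cells were the highest class in both libraries for 10 members, where 5.53% of all genes had it. These were Serpinb8, Serpinb1a, Serpinb1b, Serpinb1c, Serpinb6b, Serpinb9, Serpina1b, Serpina1e, Serpina3f and Serpina3g. Blood-endothelial-like cells were highest for 4 (13.6% of all genes): Serpinc1, Serping1, Serpini1 and Serpinf1. For Serpinc1 the lead over the next class was small, 1.47-fold in cKO and 1.17-fold in Ctrl, at 4.49 and 3.45 CPM. Serpini1 led 3.64-fold and 1.54-fold, at 5.61 and 4.60 CPM. Basal-like cells were highest for Serpinb5 and Serpinb2 (16% of all genes) and hormone-sensing-like cells for Serpina7 (19.7% of all genes), which had under 1 CPM in both libraries. Luminal-progenitor-like cells (7.72% of all genes) and barcodes with both luminal sets (1.03%) were highest for 0 members. A lead of at least 4-fold over the next class in both libraries was met by 7 members, against 3.71% of all genes: Serpina1b, Serpina1e, Serpina3f, Serpinb1a, Serpinb1b and Serpinb9 in HEV-like cells, and Serpinf1 in blood-endothelial-like cells. A gene with 0 UMIs in the next class had no defined lead and was not counted. Among members with the same highest class in both libraries, this left out Serpinb1c, at 5.77 CPM in cKO and 1.83 CPM in Ctrl HEV-like cells. For the other 8 members the highest class differed between libraries; Serpinb6a, Serpinh1, Serpine2, Serpina3n, Serpina1d, Serpina10, Serpinb11 and Serpinb12 make up that group.

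The α1-antitrypsin genes, textbook products of the liver, were abundant in HEV-like cells. Serpina1e stood at 1698 CPM in cKO and 1568 CPM in Ctrl (ratio 1.08, 1.04 to 1.13). The cKO level was 39.8 times that in cKO blood-endothelial-like cells, and in Ctrl blood-endothelial-like cells the gene had 3 UMIs. Serpina1e was seen in 91.2% of cKO and 72.9% of Ctrl HEV-like cells, and the 28 cKO and 13 Ctrl cells without it sat in a class with median depths of 26538 and 31043.5 UMIs. The same gene was seen in 1.54% of cKO and 0.186% of Ctrl basal-like cells, whose median depths were 7276 and 10280 UMIs. Serpina1b reached 366 and 525 CPM in HEV-like cells (ratio 0.697, 0.647 to 0.752). Both antitrypsin genes were therefore present at high level in the HEV-like cells of either library. Serpina1d, the overlapping copy, had 10.6 and 10.4 CPM there.

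The level of these genes varied widely from cell to cell. Across HEV-like cells, the lower quartile, median and upper quartile of Serpina1e were 886, 1553 and 2336 CPM in cKO, against 0, 1235 and 2248 CPM in Ctrl. In Ctrl the 5 cells with most Serpina1e UMIs, of 48, held 33.1% of them. The upper part of the distribution was alike in both libraries, and the share of cells without the message was larger in Ctrl.

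The clade B inhibitors of leukocyte granule proteases shared the HEV-like class. Serpinb1a, which inhibits neutrophil elastase, cathepsin G and proteinase 3, had 1885 CPM in cKO and 1727 CPM in Ctrl HEV-like cells (ratio 1.09, 1.05 to 1.14), and 191 and 233 CPM in blood-endothelial-like cells. Serpinb9, the intracellular inhibitor of granzyme B, had 970 and 1255 CPM in HEV-like cells (ratio 0.773, 0.737 to 0.811). Their quartiles across single cells overlapped between the libraries, with medians of 1574 and 1246 CPM for Serpinb1a and 804 and 809 CPM for Serpinb9. Serpinb6b, a mouse copy of Serpinb6a, had 88.6 and 123 CPM in that class, and Serpinb8, which inhibits furin in humans, 28.9 and 35.4 CPM. Serpinb1b and Serpinb1c, copies of Serpinb1a, were rare, with 4.06 and 5.49 CPM and with 5.77 and 1.83 CPM. Genes of their target proteases were sparse in these cells: of 10 granule protease genes, cathepsin G (Ctsg) was the single one with at least 20 UMIs in HEV-like cells, at 10.4 CPM in cKO and 20.7 CPM in Ctrl.

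Serpinb6a, an intracellular inhibitor of cathepsin G and trypsin-like proteases, was the broadly present clade B member. Its levels were 554 CPM in cKO and 695 CPM in Ctrl HEV-like cells and 467 and 716 CPM in blood-endothelial-like cells (ratio 0.653, 0.587 to 0.725). In luminal-progenitor-like cells Serpinb6a had 178 and 189 CPM, in basal-like cells 150 and 176 CPM, and in the hormone-sensing-like kind 20.7 and 10.2 CPM. The 2 luminal kinds thus stood far apart in both libraries, with the progenitor-like cells higher.

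The antichymotrypsin-like genes of the clade A block, a group much expanded in mice, split by vessel type. Serpina3f had 48.2 CPM in cKO and 34.2 CPM in Ctrl HEV-like cells (ratio 1.41, 1.07 to 1.90). Serpina3g, an inhibitor of lysosomal cathepsins, had 102 and 66.5 CPM there (ratio 1.54, 1.26 to 1.89), but 281 CPM in the 89 cKO lymphatic-endothelial-like cells and 119 CPM in the 8 Ctrl ones. Serpina3n, an inhibitor of granzyme B in mice, was low in HEV-like cells, at 3.42 and 2.44 CPM, and reached 163 and 143 CPM in lymphatic-endothelial-like cells. Levels of Serpina3g and Serpina3n were thus higher in the lymphatic-endothelial-like cells than in the HEV-like cells of both libraries, in Ctrl on 8 lymphatic-endothelial-like cells only.

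The promoters of these 3 neighbours are printed because each holds a loose κB-type match, shown in capitals: GGG, any 2 bases, TT, any 1 base and CC. Each window runs from 250 bases before to 50 after an annotated start (RefSeq, GRCm38.p6), on the plus strand, at chr12:104214294-104214593 for Serpina3f, chr12:104235897-104236196 for Serpina3g and chr12:104406458-104406757 for Serpina3n. Promoter windows were found for 22 of the 25 members, with 28 windows between them, and the match, searched on both strands, lay in 3 of the 28 windows (10.7%) and in 4.79% of 32851 promoter windows of all genes. Serpina3f has a second window, at chr12:104214383-104214682, with no match.
Serpina3f: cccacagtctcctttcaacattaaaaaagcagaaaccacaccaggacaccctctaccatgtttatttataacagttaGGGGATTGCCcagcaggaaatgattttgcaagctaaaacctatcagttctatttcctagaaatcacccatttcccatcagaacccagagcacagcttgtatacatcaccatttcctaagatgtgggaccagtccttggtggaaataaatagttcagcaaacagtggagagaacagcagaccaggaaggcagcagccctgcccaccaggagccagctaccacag
Serpina3g: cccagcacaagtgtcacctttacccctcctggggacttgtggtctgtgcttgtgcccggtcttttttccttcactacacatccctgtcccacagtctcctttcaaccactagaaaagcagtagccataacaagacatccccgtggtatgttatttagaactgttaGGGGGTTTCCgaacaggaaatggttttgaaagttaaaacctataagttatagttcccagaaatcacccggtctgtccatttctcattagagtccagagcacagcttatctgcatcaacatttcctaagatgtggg
Serpina3n: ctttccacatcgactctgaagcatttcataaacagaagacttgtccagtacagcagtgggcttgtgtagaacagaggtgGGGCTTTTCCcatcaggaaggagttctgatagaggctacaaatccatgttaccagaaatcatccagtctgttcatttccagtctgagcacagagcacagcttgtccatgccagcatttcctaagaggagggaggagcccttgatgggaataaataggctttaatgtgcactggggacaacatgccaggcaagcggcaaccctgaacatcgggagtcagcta

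A second motif, an interferon-type match of GAAA, any 2 bases and GAAA, was searched on both strands in the same windows and lay in 2 of the 28 (7.14%), those of Serpinb6a and Serpinb9, and in 3.44% of all windows. The Serpinb9 window (chr13:33004291-33004590, plus strand) is shown with the match, which reads on the minus strand, in capitals, since Serpinb9 was among the members that led in HEV-like cells. These are matches of letters, and binding was not measured.
Serpinb9: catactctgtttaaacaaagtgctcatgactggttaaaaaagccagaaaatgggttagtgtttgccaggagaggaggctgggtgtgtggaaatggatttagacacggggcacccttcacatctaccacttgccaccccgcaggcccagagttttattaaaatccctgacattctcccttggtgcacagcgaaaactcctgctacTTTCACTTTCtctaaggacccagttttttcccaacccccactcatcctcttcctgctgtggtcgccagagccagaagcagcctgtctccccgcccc

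**Figure D2:**
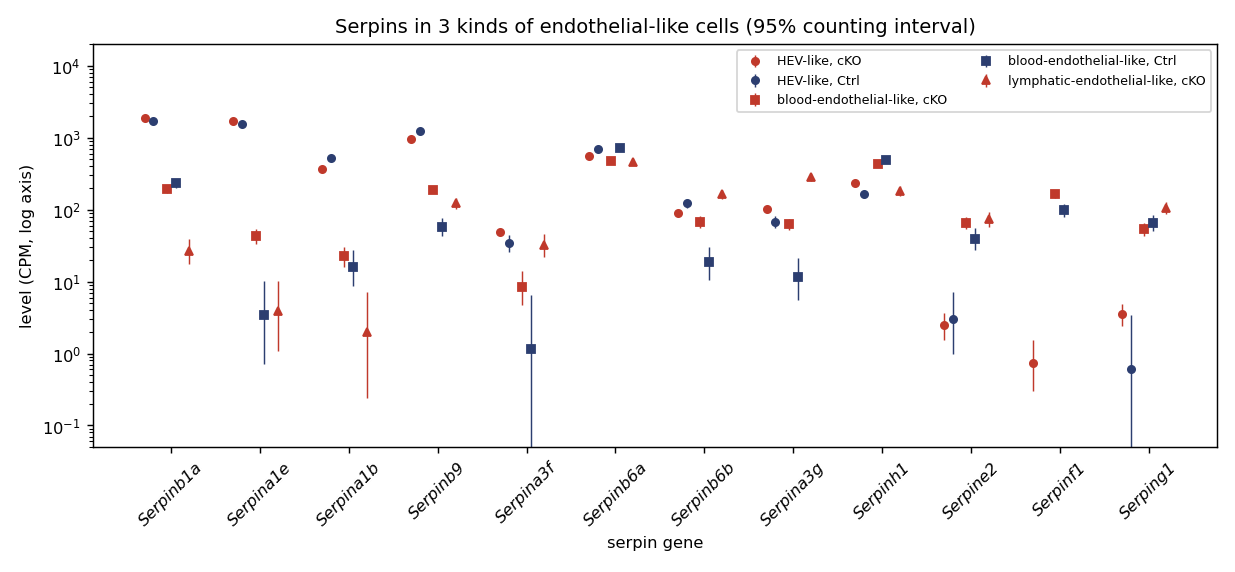
Levels of 12 serpins (CPM, log axis) in 3 kinds of endothelial-like cells, with symbols for the kind, red for cKO and blue for Ctrl, and bars for 95% counting intervals; the 8 lymphatic-endothelial-like Ctrl cells are left out, as are libraries with 0 UMIs. Serpinb1a, Serpina1e, Serpina1b and Serpinb9 lie highest in HEV-like cells, whereas Serpine2 and Serping1 lie lowest there.

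Blood-endothelial-like cells carried more of some secreted serpins than HEV-like cells did. Serpinf1 had 162 CPM in cKO and 97.7 CPM in Ctrl blood-endothelial-like cells, against 0.748 CPM in cKO HEV-like cells and 0 UMIs in Ctrl HEV-like cells and in lymphatic-endothelial-like cells of both libraries. In blood-endothelial-like cells 5 cells held 56.1% of those UMIs in cKO and 69.4% in Ctrl. Serping1, the C1 inhibitor of the complement cascade, had 53.3 and 65.5 CPM in that class (ratio 0.813, 0.580 to 1.15). Fibroblast-like cells had more of both, with 574 and 1118 CPM of Serpinf1 and 2290 and 2855 CPM of Serping1. That class also held pericyte markers, with sums of 915 CPM in cKO and 487 CPM in Ctrl. In blood-endothelial-like cells all 6 fibroblast markers had UMIs in cKO and 3 in Ctrl, with sums of 136 and 43.7 CPM, and the pericyte markers summed to 102 and 34.5 CPM; their part in the Serpinf1 level was not tested. Serpinc1 (antithrombin) and Serpini1 (neuroserpin, an inhibitor of tPA) were sparse, at 4.49 and 3.45 CPM and at 5.61 and 4.60 CPM.

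Between the libraries, HEV-like cells had 3 of 17 measured members at least 1.5-fold higher in cKO (24.9% of all 9868 genes) and 0 at least 1.5-fold lower (6.89%). The 3 were Serpina3g, Serpinb1c and Serping1. The Serping1 ratio of 5.78 (0.967 to 235) rested on 33 cKO UMIs, of which 5 cells held 93.9%, and on 1 Ctrl UMI. All genes together were shifted by a median log2 ratio of 0.19 in HEV-like cells and of -0.13 in the barcodes with both luminal sets, against -0.11 to 0.09 in the other classes. Serpinh1 in HEV-like cells, at 237 and 164 CPM (ratio 1.44, 1.27 to 1.64), stood above that shift but under 1.5-fold.

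Blood-endothelial-like cells had 9 of 14 measured members at least 1.5-fold higher in cKO (17.6% of all 7748 genes) and 1 at least 1.5-fold lower (9%), Serpinb6a. Serpinb9 had 187 CPM in cKO and 57.5 CPM in Ctrl (ratio 3.26, 2.42 to 4.48) and was seen in 52.4% and 30.4% of these cells. Serpinb6b had 67.3 and 18.4 CPM (ratio 3.66, 2.16 to 6.61), and Serpina1e 42.6 and 3.45 CPM (ratio 12.4, 4.07 to 61.3). These values leaned on few cells: 5 cells held 38.9% of the cKO and 62.0% of the Ctrl UMIs of Serpinb9, and 80.3% and 100% of those of Serpina1e. Serpina3g had 62.3 and 11.5 CPM, but with classes taken from clusters the log2 ratio was -0.0017. The other 5 members at least 1.5-fold higher were Serpine2, Serpinb8, Serpinf1, Serpina1d and Serpina3n. The UMI minimum was set on both libraries together, so a member such as Serpina1e could count as measured mainly through cKO. Glycam1 was 202 CPM in these cKO cells and 46.0 CPM in the Ctrl cells, and the lymphatic markers summed to 106 and 56.3 CPM; what these add to the 9 ratios was not tested.

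Turning to the epithelium, Serpine2 showed the largest difference between the libraries of any member with at least 50 UMIs in a class. Serpine2, also called protease nexin-1, is a secreted inhibitor of thrombin, uPA and plasmin. In hormone-sensing-like cells it had 5.97 CPM in cKO (4.80 to 7.34) and 84.6 CPM in Ctrl (79.1 to 90.4), a ratio of 0.0706 (0.0561 to 0.0877), or 14.2-fold lower in cKO. Serpine2 was seen in 5.41% of cKO and 56.2% of Ctrl hormone-sensing-like cells. With each cell thinned to 5000 UMIs, the shares were 2.17% of 997 cKO and 29.3% of 441 Ctrl cells. As a background for these shares, luminal-progenitor-like cells showed Serpine2 in 1.90% and 5.39%, at median depths of 12027 and 20153 UMIs.

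The same gap appeared in the other luminal barcodes that carry hormone-sensing markers. Pairs that include a hormone-sensing-like cell were not tested for among them, so these barcodes are not a separate repeat of the gap. Barcodes with both luminal marker sets had 2.89 CPM of Serpine2 in cKO and 47.8 CPM in Ctrl (ratio 0.0604, 0.0497 to 0.0729), and luminal cells between the 2 kinds had 2.45 and 51.1 CPM. In luminal-progenitor-like cells the level was low in both libraries, at 1.504 and 3.23 CPM (ratio 0.466, 0.268 to 0.787). Among the 6 compared classes the order of Serpine2 therefore differed: blood-endothelial-like cells were its highest class in cKO, and hormone-sensing-like cells in Ctrl.

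Outside the luminal cells the direction varied. Basal-like cells had 14.6 CPM of Serpine2 in cKO and 8.40 CPM in Ctrl (ratio 1.74, 1.33 to 2.29). Blood-endothelial-like cells had 65.6 and 39.1 CPM (ratio 1.68, 1.14 to 2.54), but with classes taken from clusters the log2 ratio was -0.62. HEV-like cells had little, at 2.46 and 3.05 CPM. The lymphatic-endothelial-like cells had 73.5 CPM in cKO and 214 CPM in the 8 Ctrl cells, which are too few to compare. Serpine2 has no match to either seed in its 808-base 3′ untranslated region. Hormone-sensing markers in the same cells were 1316 CPM in cKO and 1193 CPM in Ctrl for Prlr, 41.1 and 41.1 CPM for Esr1, 92.3 and 91.8 CPM for Pgr, 856 and 2449 CPM for Cited1, 4994 and 2898 CPM for Areg, and 131 and 76.0 CPM for Tbx3. Of these 6 markers of the class, Cited1 alone was more than 1.5-fold lower in cKO, and Areg and Tbx3 were more than 1.5-fold higher.

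**Figure D3:**
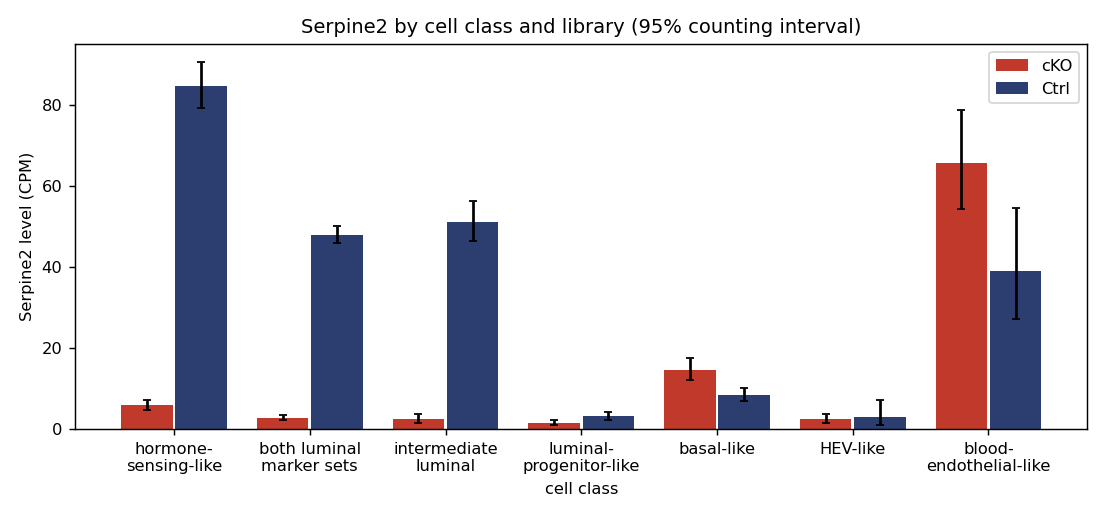
Serpine2 level (CPM, linear axis starting at 0) in 7 cell classes, cKO bar left of Ctrl bar, with 95% counting intervals from 1 library each. The Ctrl bars reach 84.6, 47.8 and 51.1 CPM in the first 3 classes, where the cKO bars are at 5.97, 2.89 and 2.45 CPM; in basal-like and blood-endothelial-like cells the cKO bar is the higher one.

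Serpinb5 was the serpin of the whole epithelium, and it was higher in cKO in each epithelial class. It had 234 CPM in cKO and 120 CPM in Ctrl hormone-sensing-like cells (ratio 1.95, 1.83 to 2.09) and 277 and 194 CPM in barcodes with both luminal sets (ratio 1.43, 1.39 to 1.47). In luminal-progenitor-like cells Serpinb5 had 366 and 325 CPM (ratio 1.12, 1.08 to 1.17), and in basal-like cells 516 and 385 CPM (ratio 1.34, 1.29 to 1.40). The median across single hormone-sensing-like cells was 174 CPM in cKO and 86.3 CPM in Ctrl, with upper quartiles of 316 and 162 CPM. Only the hormone-sensing-like ratio passed 1.5-fold, and the trimmed-mean scaling kept Serpinb5 higher in cKO in all 4 classes.

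Serpinh1, the collagen chaperone, ran the other way in the same cells. Basal-like cells, which lay down basement membrane, had 373 CPM in cKO and 529 CPM in Ctrl (ratio 0.704, 0.674 to 0.736), with single-cell medians of 291 and 442 CPM. Hormone-sensing-like cells had 11.3 and 19.3 CPM (ratio 0.589, 0.477 to 0.725), and barcodes with both luminal sets 53.9 and 67.2 CPM (ratio 0.801, 0.758 to 0.848). Luminal-progenitor-like cells had 126 and 143 CPM (ratio 0.878, 0.824 to 0.934), which is about the -0.11 log2 shift of all genes in that class. Of these 4 classes, the hormone-sensing-like one alone passed 1.5-fold.

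In hormone-sensing-like cells 7 of 10 measured members were at least 1.5-fold higher in cKO (14.3% of all 11955 genes) and 2 at least 1.5-fold lower (17.5%). Besides Serpinb5 the higher ones were Serpinb6a (ratio 2.03, 1.62 to 2.55), Serpinb9, Serpinb1a, Serpinb6b, Serpina1e and Serpinc1, and the lower ones were Serpine2 and Serpinh1. Serpinb9 had 8.89 CPM in cKO and 4.43 CPM in Ctrl, Serpinb1a 2.79 and 0.193 CPM, and Serpina1e 1.33 and 0.289 CPM. These 3 are low values of genes that are high in HEV-like cells. A gene counted as measured when its UMIs of both libraries together reached 20, so it could pass mainly through the higher library. Serpinb1a had 42 cKO and 2 Ctrl UMIs (ratio interval 3.76 to 123), Serpinb6b 25 and 5, and Serpina1e 20 and 3. The count of 7 therefore leans in part on members with few Ctrl UMIs.

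Low serpin levels in epithelial classes were set beside Glycam1, the most abundant marker of HEV-like cells. Glycam1 is also a milk protein gene of the mammary epithelium, so free RNA and epithelial expression of it cannot be told apart here. Its level in hormone-sensing-like cells was 226 CPM in cKO and 31.4 CPM in Ctrl, in luminal-progenitor-like cells 160 and 29.6 CPM, and in basal-like cells 196 and 28.3 CPM. For every 1000 Glycam1 UMIs, Serpina1e had 11.3 UMIs in cKO and 8.02 in Ctrl HEV-like cells, and between 5.88 and 11.5 in the cKO and between 5.54 and 11.4 in the Ctrl epithelial classes. Serpina1e in epithelial classes thus lay near the ratio of HEV-like cells, but in Ctrl on few UMIs. These were 3 in hormone-sensing-like cells, 5 in luminal-progenitor-like cells and 9 in barcodes with both luminal sets. Fewer still lay behind the Ctrl basal-like value of 5.54, which was set against 361 Glycam1 UMIs. Serpinb1a had 12.5 UMIs in cKO and 8.83 in Ctrl HEV-like cells. In the epithelial classes it had between 12.3 and 30.9 in cKO and between 6.13 and 105 in Ctrl. The lowest value of both libraries was in the hormone-sensing-like class, where the Ctrl value rests on 2 Serpinb1a UMIs. Serpinb9 had 6.46 and 6.42 in HEV-like cells, and between 25.1 and 89.5 in the cKO and between 65.9 and 291 in the Ctrl epithelial classes, all above the HEV-like ratio. The part of free RNA in these levels was not tested.

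**Figure D4:**
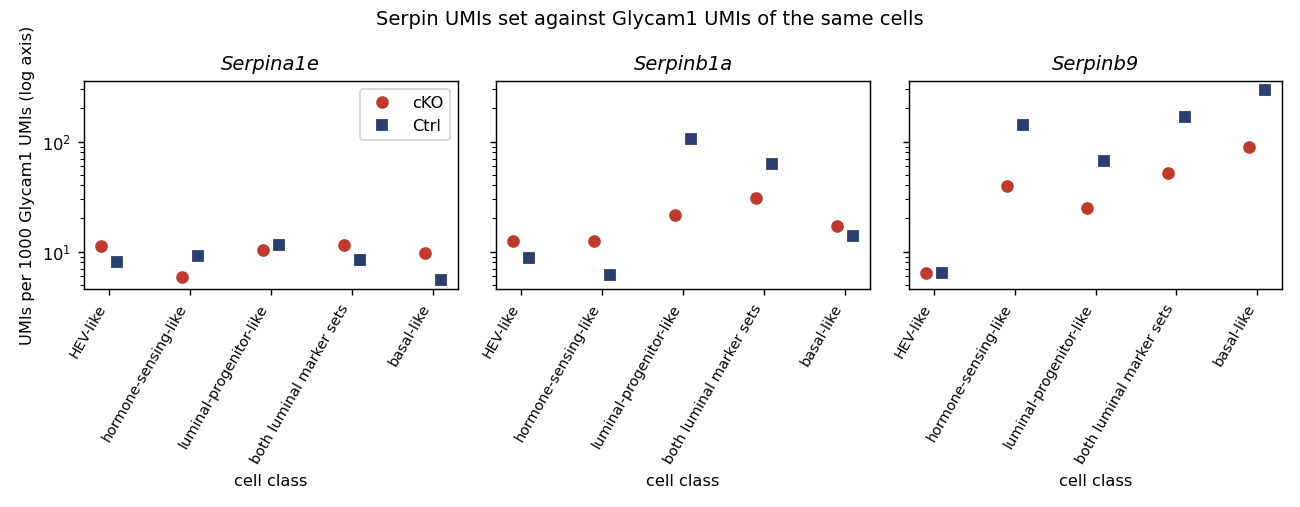
UMIs of Serpina1e, Serpinb1a and Serpinb9 per 1000 Glycam1 UMIs (log axis) in HEV-like cells and 4 epithelial classes, red circles for cKO left of blue squares for Ctrl, with no error bars. Serpina1e stays between 5.54 and 11.5 in these 5 classes, Serpinb1a reaches 105 in Ctrl luminal-progenitor-like cells, and Serpinb9 is above its HEV-like value of 6.46 in cKO and 6.42 in Ctrl in each epithelial class. The Ctrl epithelial points of Serpina1e rest on few UMIs, as does the Ctrl hormone-sensing-like point of Serpinb1a.

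In luminal-progenitor-like cells, 2 of 9 measured members were at least 1.5-fold higher in cKO (6.79% of all 11675 genes) and 1 at least 1.5-fold lower (13%). The 2 were Serpinb9, at 4.03 CPM in cKO and 1.95 CPM in Ctrl (ratio 2.07, 1.30 to 3.35), and Serpina1e; the 1 was Serpine2. In barcodes with both luminal sets, 6 of 16 were higher (11.4% of all 13748 genes) and 6 lower (17.5%). The 6 higher ones were Serpina1e, Serpina3g, Serpinb1a, Serpinb2, Serpinb8 and Serpinb9, and the 6 lower ones were Serpine2, Serpina7, Serpinb12, Serpinc1, Serping1 and Serpini1. Serpinb8 in that class had 7.25 and 4.39 CPM (ratio 1.65, 1.37 to 1.997), Serpinb1a 4.21 and 1.56 CPM, and Serpina1e 1.57 and 0.210 CPM. Among the lower ones, Serpinc1 had 1.82 and 2.89 CPM (ratio 0.629, 0.464 to 0.846) and Serping1 0.349 and 0.934 CPM. Some of these members leaned on few cells. In Ctrl, 5 cells held 77.5% of the 40 Serping1 UMIs and 80% of the 25 Serpina7 UMIs, against 8.06% for Serpinc1. The 6 Ctrl UMIs of Serpinb2 lay in 1 cell.

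In basal-like cells, 4 of 14 measured members were at least 1.5-fold higher in cKO (9.57% of all 11264 genes) and 4 at least 1.5-fold lower (9.01%). The higher ones were Serpine2, Serpinb1a, Serpinb6b and Serpinb9, the last with 17.6 CPM in cKO and 8.24 CPM in Ctrl (ratio 2.13, 1.64 to 2.78). Serpinb6b had 10.3 and 4.95 CPM (ratio 2.08, 1.47 to 2.93). The lower ones were Serpina3n, Serpinb2, Serpinc1 and Serpini1. Serpina3n had 2.70 CPM in cKO and 17.2 CPM in Ctrl (ratio 0.157, 0.0951 to 0.246) and was seen in 1.96% and 8.53% of the cells, or 1.24% and 4.80% when thinned to 5000 UMIs. Serpinb2, called PAI-2, an inhibitor of uPA, had 1.03 and 5.97 CPM, but 5 cells held 87.5% of its cKO and 94.7% of its Ctrl UMIs. Without the deepest 5% of cells its log2 ratio was 0.93. Serpina3n stood at 135 CPM in cKO and 277 CPM in Ctrl fibroblast-like cells. All 6 fibroblast markers had UMIs in basal-like cells of both libraries, with sums of 81.2 CPM in cKO and 192 CPM in Ctrl, led by Dcn at 77.3 and 175 CPM; their part in the Serpina3n ratio was not tested. Serping1 and Serpinf1 had basal-like levels of 14.1 and 14.3 CPM and of 13.1 and 16.3 CPM.

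**Figure D5:**
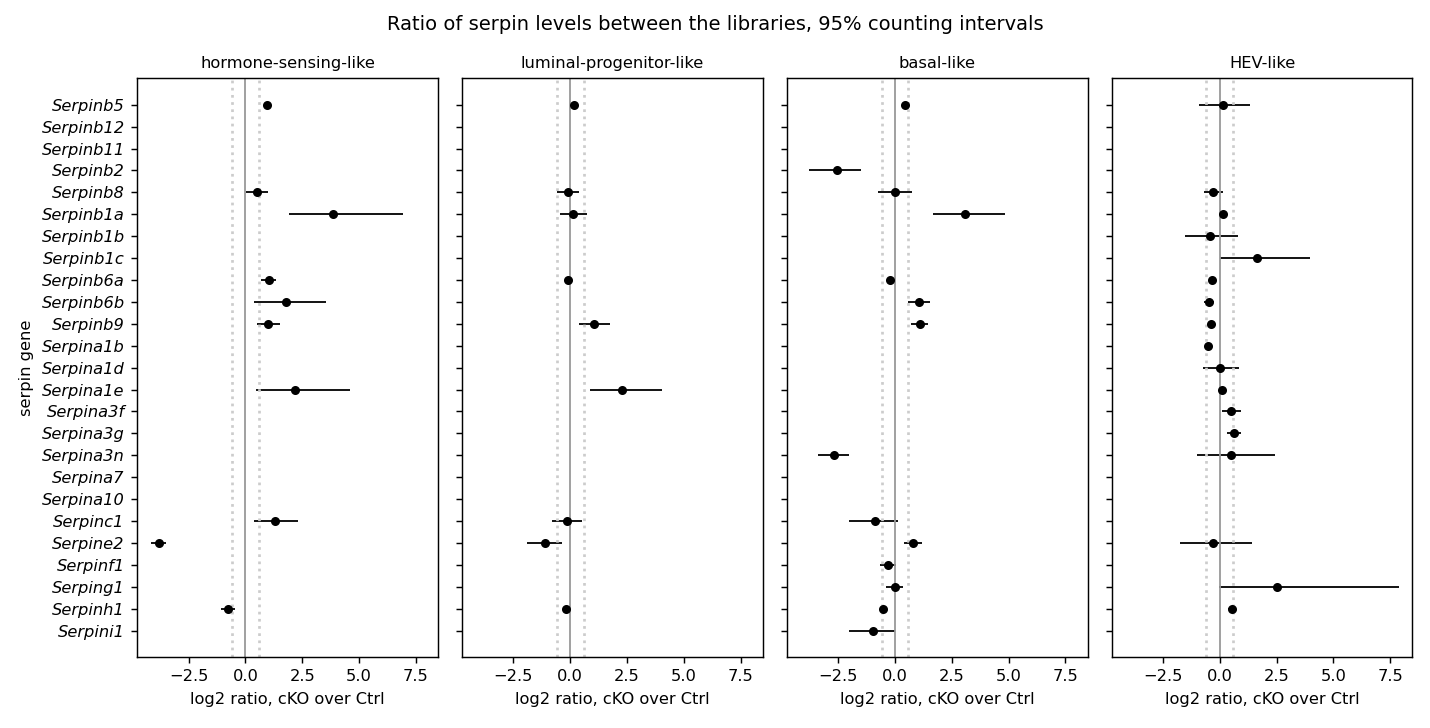
Log2 ratio of cKO over Ctrl for each serpin with at least 20 UMIs in a class and UMIs in both libraries, in 4 classes, with 95% counting intervals; dotted lines mark 1.5-fold. Serpine2 lies far left in hormone-sensing-like cells and right of 0 in basal-like cells, Serpina3n and Serpinb2 lie left in basal-like cells, and most HEV-like points lie near 0.

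The sparse members add little. Serpinb11 and Serpinb12 had 42 and 44 UMIs over both libraries, Serpina7 48 and Serpini1 137. Serpina10, an inhibitor of clotting factor Xa, had 183 UMIs and at most 1.12 CPM in the 6 compared classes of cKO and 0.140 CPM in those of Ctrl, but 337 CPM in the 21 cKO and 243 CPM in the 5 Ctrl fibroblast-like cells. These cells also had Ccl21a at 14570 CPM in cKO and 16887 CPM in Ctrl and no UMI of 7 blood-endothelial markers. Their fibroblast markers summed to 9712 CPM in cKO and 18779 CPM in Ctrl. Their pericyte markers summed to 915 and 487 CPM, led by Rgs5 at 742 and 310 CPM. The part of pericytes in the serpin levels of this class was not tested.

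The proteases and partners of the serpins were read from 6 lists. For comparison, the shares of all genes at least 1.5-fold higher and lower in cKO were 14.3% and 17.5% in hormone-sensing-like cells, 6.79% and 13% in luminal-progenitor-like cells, 11.4% and 17.5% in barcodes with both luminal sets, 9.57% and 9.01% in basal-like cells, 24.9% and 6.89% in HEV-like cells, and 17.6% and 9% in blood-endothelial-like cells. Of the plasminogen and coagulation list, cKO hormone-sensing-like cells had 8 of 12 measured genes at least 1.5-fold higher and 1 lower, against 9 and 0 of 14 in barcodes with both luminal sets, 4 and 0 of 10 in luminal-progenitor-like cells, 3 and 3 of 13 in basal-like cells, 2 and 1 of 12 in HEV-like cells, and 2 and 1 of 12 in blood-endothelial-like cells. The list's median log2 ratio was 1.07 in hormone-sensing-like cells, where that of all genes was -0.06. Plau, which encodes the Serpine2 target uPA, had 128 CPM in cKO and 50.5 CPM in Ctrl luminal-progenitor-like cells and 63.9 and 19.9 CPM in barcodes with both sets. The tissue factor gene F3 had 798 and 504 CPM in luminal-progenitor-like cells. Plat, which encodes tPA, had 9.22 and 3.28 CPM among hormone-sensing-like cells. Lrp1, the receptor that takes up serpin-protease complexes, had 7.56 and 2.31 CPM in that same class. Other classes showed some of these genes at least 1.5-fold lower in cKO. These were Plat in basal-like and HEV-like cells and Plau in blood-endothelial-like cells. Procr was lower in hormone-sensing-like and basal-like cells, and Tfpi2 in basal-like cells.

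For the other protease lists the counts are given without a reading. Some lay near those shares and some did not. Of trypsin-like proteases, 5 of 12 were higher in hormone-sensing-like cells (14.3% of all genes). Of cathepsins and caspases, 5 of 12 were lower in basal-like cells (9.01%). Among epithelial trypsin-like proteases, 5 of 12 were higher and 2 lower in hormone-sensing-like cells, 1 and 1 of 12 in luminal-progenitor-like, 4 and 4 of 14 in barcodes with both sets, 3 and 1 of 10 in basal-like, 2 and 0 of 6 in HEV-like and 0 and 0 of 4 in blood-endothelial-like cells. Prss22, encoding a tryptase of epithelia, had 943 CPM in cKO and 132 CPM in Ctrl hormone-sensing-like cells, whereas Prss8, encoding prostasin, had 10.0 and 31.4 CPM. The cathepsin and caspase list had 2 higher and 2 lower of 12 in hormone-sensing-like, 0 and 2 of 12 in luminal-progenitor-like, 1 and 2 of 13 in barcodes with both sets, 0 and 5 of 12 in basal-like, 1 and 3 of 13 in HEV-like and 1 and 4 of 12 in blood-endothelial-like cells. Ctsd, the lysosomal aspartic protease cathepsin D, had 327 CPM in cKO and 1259 CPM in Ctrl among hormone-sensing-like cells, and Ctsl 1020 and 550 CPM. Ctsh had 23.2 and 56.1 CPM and Ctsc 42.9 and 80.6 CPM in basal-like cells. The granule protease list had at most 1 measured gene in any class.

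The list of protease inhibitors of other families gave mixed counts. Of its genes, 2 were higher and 3 lower of 10 in hormone-sensing-like, 4 and 2 of 13 in luminal-progenitor-like, 4 and 3 of 15 in barcodes with both sets, 2 and 1 of 11 in basal-like, 2 and 1 of 11 in HEV-like and 4 and 3 of 10 in blood-endothelial-like cells. Slpi, the secretory leukocyte protease inhibitor, had 18.6 CPM in cKO and 83.7 CPM in Ctrl hormone-sensing-like cells, and Cst3, the cathepsin inhibitor cystatin C, 484 and 2211 CPM in luminal-progenitor-like cells. Timp1, an inhibitor of metalloproteases, had 287 and 134 CPM in HEV-like cells and 98.7 and 279 CPM in blood-endothelial-like cells.

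In the collagen synthesis list around Serpinh1, lower genes outnumbered higher ones in the 4 epithelial classes and in blood-endothelial-like cells. The luminal-progenitor-like count was near the share of all genes. In cKO the list had 1 higher and 6 lower of 12 in hormone-sensing-like cells and 0 and 9 of 14 in barcodes with both sets. It had 0 and 2 of 12 in luminal-progenitor-like, 0 and 6 of 16 in basal-like and 0 and 3 of 15 in blood-endothelial-like cells. HEV-like cells had 2 and 1 of 14. Its median log2 ratio was -0.62 in hormone-sensing-like and -0.39 in basal-like cells, where that of all genes was -0.06 and 0.03. P4ha2, a prolyl hydroxylase subunit, had 9.75 CPM in cKO and 50.1 CPM in Ctrl hormone-sensing-like cells, and P4hb, its partner, 89.2 and 193 CPM. In basal-like cells Fkbp10, a collagen chaperone, had 6.93 and 12.6 CPM and P3h1, another prolyl hydroxylase, 5.13 and 9.81 CPM. Col1a2, which is also a fibroblast marker, had 1.80 and 12.2 CPM there.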

How the data were processed

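The authors deposited raw UMI counts per gene and cell barcode. The genome build was mm10 and the software Cell Ranger 2, per the submitters' processing notes, whereas the file headers give software version 3.0.0; the annotation is not given in the sources used here. Per the labels' protocols the libraries are 10x Chromium Single Cell 3′ v2 libraries. The total was 103668011 UMIs for cKO and 95520633 for Ctrl.

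Members were all genes whose symbol is Serpin, a clade letter a to i and a digit; 1 such gene is not reported here and enters no count, sum or figure of the members. Members and gene lists were chosen with earlier results of these data known. Cells with at least 500 genes and at most 10% mitochondrial UMIs were kept. Each cell got the mean of log(1 + counts per 10000) over each marker list. Thresholds set after seeing the data were 2.75 for the luminal list, 0.75 for basal, 0.5 for blood endothelial, 1.5 for HEV, 0.5 for lymphatic and 1 for fibroblast; a luminal kind needed at least 0.8 for its own list and under 0.4 for the other. No doublet caller was run; barcodes past the thresholds of several lineages were left ungated, and pairs within a lineage remain. Scanpy 1.11.5 and leidenalg 0.10.2 gave the clusters (30 components, 15 neighbours).

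Within each class and library UMIs were added up and divided by their total, times 1000000. A gene needed at least 20 UMIs in a class over both libraries together, so it could pass mainly through the library where it was higher. Classes under 40 cells in a library were not compared. A sum of 0 was set to 3 counts in counts of genes and medians only. Thinning to 5000 UMIs gives the share expected over all draws, leaving out shallower cells. Intervals and limits cover counting error only, since UMIs of 1 library share its mice and handling. The summing, ratio and count steps were tested on simulated data.

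Values are given for members with at least 200 UMIs, and for those with at least 50 UMIs in a class and a 2-fold ratio there; from each list, up to 4 genes per class with at least 50 UMIs and the largest ratios were eligible. Alternatives were trimmed-mean scaling, other UMI and fold thresholds, stricter and looser gates, other cell filters, per-cell means and classes by clustering (luminal, basal, endothelial, lymphatic, HEV and fibroblast cluster scores); leaving out the deepest 5% of cells or the 5 cells holding most UMIs was added after seeing the data.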

Additional observations from a re-analysis of the deposited data

Results flagged for a closer look

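Some members ran in opposite directions between the libraries in different cell classes, each past 1.5-fold; with 1 library per group none of these differences was tested. Serpine2 was higher in cKO in basal-like and blood-endothelial-like cells and lower in 3 luminal classes. The basal-like log2 ratio of 0.80 stood 4.63 above that of hormone-sensing-like cells, 1.90 above luminal-progenitor-like cells and 4.85 above barcodes with both luminal sets. The blood-endothelial-like log2 ratio of 0.75 stood 4.57, 1.85 and 4.80 above the same 3 classes, and it was -0.62 with classes taken from clusters. Serpinb6a was higher in cKO in hormone-sensing-like cells and lower in blood-endothelial-like cells, 1.63 log2 units apart. Serpinc1 was higher in hormone-sensing-like cells and lower in barcodes with both luminal sets, 1.95 log2 units apart. Serpina10 is given because its signal lies in a class left out of the comparisons: fibroblast-like cells had 337 CPM in cKO and 243 CPM in Ctrl.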

How the results depend on the processing

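No paired analysis was possible because each group has 1 library, so that the groups share fewer than 2 replicate numbers. The count of serpins past 1.5-fold moved most with the UMI minimum: at 50 UMIs it was 7 in barcodes with both luminal sets, and at 1 UMI it was 7 in HEV-like, 14 in basal-like, 19 in both-set, 15 in hormone-sensing-like and 9 in progenitor-like luminal cells. At 2-fold it was 5 in basal-like and 6 in blood-endothelial-like cells, and under the stricter gate 6 in both-set cells. The counts at 1 UMI include calls made by the floor, since a sum of 0 was set to 3 counts. Serpina10 in hormone-sensing-like cells, with 1 cKO and 0 Ctrl UMIs, was thereby counted as lower in cKO. The genes of the 6 lists past 2-fold numbered 4 in luminal-progenitor-like, 22 in both-set, 7 in basal-like, 8 in HEV-like and 8 in blood-endothelial-like cells. Of 80 member ratios, 45 were past 1.5-fold; for 31 of the 45 every alternative gave a value, and 29 of these kept their direction in all. The other 14 had no value without the 5 cells holding most of their UMIs, since a library was left with none. In all, 5 ratios reversed under 1 alternative each: Serpinb2 in basal-like cells (0.93) and Serping1 in HEV-like cells (-0.54) without the deepest 5% of cells, Serpinb2 in both-set cells under the stricter gate (-0.047), and Serpine2 (-0.62) and Serpina3g (-0.0017) in blood-endothelial-like cells with classes by clustering. The cause was not tested. Serpine2 kept its direction in hormone-sensing-like and both-set cells, at log2 ratios in the first class of -4.19 by per-cell means and -4.28 by clustering, and in both-set cells of -4.38 by per-cell means and -4.51 without the deepest 5% of cells. Serpinb2 in basal-like cells was -1.22 by per-cell means, -1.30 without its 5 leading cells and -1.06 by clustering. Serpina3n in basal-like cells stayed between -2.75 and -2.49.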
